A study of Mus musculus with 6 samples.

Results

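The markers described here are 10 genes that mark the resident macrophages of mouse liver, named Kupffer cells, or macrophages in general: Clec4f, Marco, Vsig4, Timd4, Cd5l, C1qa, C1qb, C1qc, Adgre1 and Csf1r. They were taken by symbol from a table of 54446 genes, and all 10 were in it and passed the filter on low counts. Liver cells of mice were sequenced for poly-A RNA at weeks 0, 2 and 7, with 2 libraries a week and 6 in all, and by its title the series compares cells with and without MET/CAT delivered with the SB transposase. A transposase moves DNA into a genome, MET encodes the receptor of hepatocyte growth factor, and CAT is not spelled out in the labels. The labels give only the week for each library, and no week 2 or week 7 library is marked as untreated, so treatment, age and time cannot be told apart. The strain label gives a mixed FVB/N and C57BL/6 line for the first week 0 library, and for the others the number that follows C57BL/ changes with every sample. The labels give no sex or age and do not say that the libraries of a week come from separate animals, so p-values measure only the spread between these libraries.

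Kupffer cells sit inside the liver sinusoids, where they take up bacteria, old red cells and other debris from the blood. They arise largely before birth and keep themselves by local division, which depends on the growth factor receptor encoded by Csf1r. Some of their genes are shared by macrophages of other tissues, and others, such as Clec4f in the mouse, are used almost only by Kupffer cells. In tissue RNA such genes report on the cells as a group, and fewer macrophages cannot be told apart from less of the RNA in each macrophage.

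Library totals ran from 49353453 to 58434358 deposited counts, and a read pair was taken to be worth about 4 of them. Levels are counts scaled to a common library size (CPM) after TMM scaling, which corrects for differences in library make-up, and a call is an adjusted p under 0.05 in edgeR's quasi-likelihood test over 15368 genes with Benjamini-Hochberg adjustment. The week 2 libraries stand apart from the others in genes that mark sex. Xist, which silences an X chromosome in females, was counted 12804 to 13236 times in the week 2 libraries and at most 15 times in the other 4. The Y-linked gene Ddx3y had 0 counts in both week 2 libraries and 1897 to 2303 in the rest. Sex and week therefore cannot be told apart in comparisons that use week 2, and week 7 against week 0 is the comparison without that difference. Hepatocyte markers summed to 92640 to 93255 CPM at week 0, 110850 to 117040 CPM at week 2 and 79765 to 80047 CPM at week 7, with Alb the most abundant.

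Promoter sequences are shown for some of the markers, with the letters of a site known for a macrophage factor marked. Whether such letters bear on the levels of the markers was not tested. PU.1, encoded by Spi1, is the leading factor of the macrophage lineage and binds purine-rich sites, here searched as the letters GAGGAA, which from the opposite strand read as TTCCTC in the sequence shown. RefSeq promoters (build GRCm38.p6) matched 7 of the 10 markers, and the 250 bases before the transcription start were searched. Clec4f is shown as the most Kupffer-specific marker, with no match in its window, Vsig4 as the holder of a pair of GAGGAA matches, and C1qb and C1qc as neighbours in 1 gene cluster. Capitals mark the matches, and the sequences run 5′ to 3′ on the strand of the gene.
Clec4f (chr6:83656117-83656366, minus strand): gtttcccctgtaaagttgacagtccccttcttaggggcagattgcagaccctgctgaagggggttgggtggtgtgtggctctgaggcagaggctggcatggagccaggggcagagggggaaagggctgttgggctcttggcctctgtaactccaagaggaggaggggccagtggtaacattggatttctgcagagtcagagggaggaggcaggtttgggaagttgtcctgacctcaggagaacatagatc
Vsig4 (chrX:96293439-96293688, minus strand): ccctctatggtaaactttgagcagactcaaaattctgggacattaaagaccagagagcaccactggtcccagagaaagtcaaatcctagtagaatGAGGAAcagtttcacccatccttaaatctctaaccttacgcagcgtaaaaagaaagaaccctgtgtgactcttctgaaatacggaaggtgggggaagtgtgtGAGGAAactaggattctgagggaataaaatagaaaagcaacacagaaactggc
C1qb (chr4:136886201-136886450, minus strand): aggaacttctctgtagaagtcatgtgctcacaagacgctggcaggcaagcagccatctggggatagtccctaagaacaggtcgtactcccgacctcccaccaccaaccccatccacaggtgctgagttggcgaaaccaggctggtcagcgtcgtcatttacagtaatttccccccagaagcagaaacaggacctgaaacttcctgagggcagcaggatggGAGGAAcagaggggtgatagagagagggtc
C1qc (chr4:136892915-136893164, minus strand): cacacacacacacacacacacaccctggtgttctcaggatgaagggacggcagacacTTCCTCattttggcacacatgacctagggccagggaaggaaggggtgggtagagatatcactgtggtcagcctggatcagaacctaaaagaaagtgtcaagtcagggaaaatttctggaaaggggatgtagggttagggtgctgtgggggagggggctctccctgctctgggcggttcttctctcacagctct
The PU.1 letters were found in 5 of the 7 windows (Marco, Vsig4, Cd5l, C1qb and C1qc), against 23.3% of the 32851 RefSeq promoter windows of the same length. Vsig4 held its matches 155 and 53 bases before the start, C1qb had its match at 30 and C1qc at 193. The RefSeq starts of Clec4f and C1qc lie inside the GENCODE M21 genes of those names, so their windows cover part of the GENCODE gene. Such a match describes the letters and does not show that a factor binds there.

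All 10 markers had the same order of weeks. Their levels were lowest at week 7 and highest at week 2, with week 0 between, and no library of one week overlapped a library of another for any marker. Of all tested genes 5.55% had this order without overlap. Summed over the 10 markers, the level was 588 CPM in both week 0 libraries, 852 to 867 CPM at week 2, and 434 to 440 CPM at week 7. The direction of each comparison of a marker was the same under every alternative scaling, test and left-out library that was tried.

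**Figure D1:**
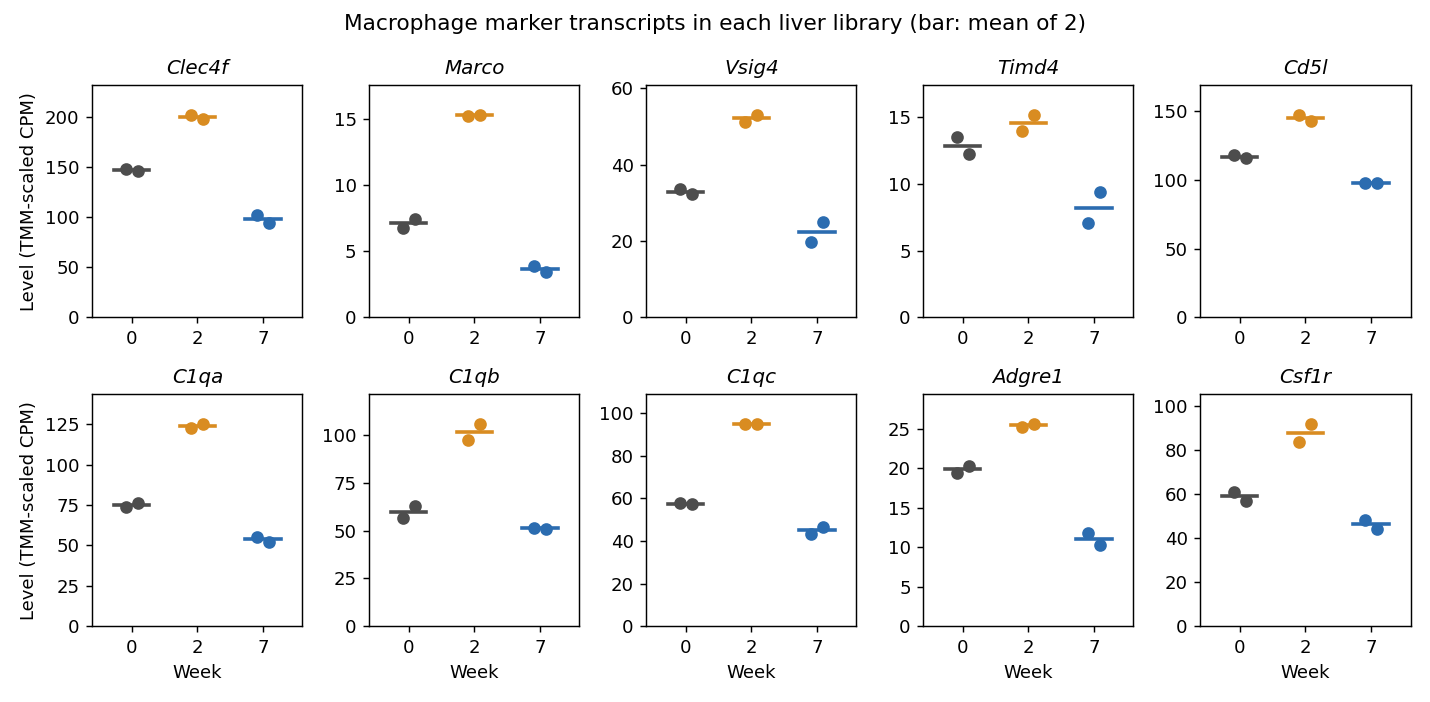
TMM-scaled CPM (vertical axes, each starting at 0) of the 10 markers in the 6 liver libraries, by the week in the labels (horizontal axes). Points are libraries and bars are means of 2 libraries. In every panel the week 2 points lie highest and the week 7 points lowest, as with Clec4f at 202 and 198 CPM at week 2 and 102 and 94.0 CPM at week 7.

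At week 7 against week 0, 9 of the 10 markers fell and 0 rose. Over all tested genes 6.23% were called lower and 7.58% higher, and 13.8% were called in either direction. The median log2 fold change of the markers was -0.52, against 0.0016 over all tested genes, and the single values ran from -0.97 for Marco to -0.22 for C1qb. The 10 markers' week 7 libraries lay below both week 0 libraries in each case, as did those of 27.8% of tested genes, while 28.2% of tested genes had them above.

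The surface receptors with which Kupffer cells hold and engulf particles were among the markers that fell. Clec4f (ENSMUSG00000014542), a galactose-binding lectin of Kupffer cells, had 147 and 146 CPM at week 0, 202 and 198 CPM at week 2, and 102 and 94.0 CPM at week 7. It averaged 97.8 ± 5.39 CPM at week 7 and 147 ± 1.10 CPM at week 0 (SD, n = 2 each), a log2 fold change of -0.58 ± 0.053 (SE; edgeR adjusted p = 0.000171). The gap between the weeks was many times the gap between libraries of a week. Marco (ENSMUSG00000026390), a scavenger receptor for bacteria and particles, had 6.77 and 7.42 CPM at week 0, 15.2 and 15.3 CPM at week 2, and 3.85 and 3.40 CPM at week 7. Its log2 fold change at week 7 against week 0 was -0.97 ± 0.16 (SE; edgeR adjusted p = 0.00466), which is 1.96-fold lower and the widest change of the 10. It rests on 208 and 174 deposited counts at week 7 and 338 and 358 at week 0.

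Vsig4 (ENSMUSG00000044206) encodes a receptor for fragments of complement C3, through which Kupffer cells catch coated bacteria. It had 33.5 and 32.4 CPM at week 0, 51.3 and 53.0 CPM at week 2, and 19.6 and 25.1 CPM at week 7. The week 7 libraries differed from each other by 27.8%, yet both lay below week 0. The log2 fold change was -0.56 ± 0.12 (SE; edgeR adjusted p = 0.0139), and leaving out week 0 replicate 1 (-0.54, adjusted p = 0.0688) or week 7 replicate 1 (-0.39, adjusted p = 0.0546) ended the call. Timd4 (ENSMUSG00000055546) encodes a receptor for the phosphatidylserine of dying cells and marks macrophages of embryonic origin. It had 13.5 and 12.2 CPM at week 0, 14.0 and 15.1 CPM at week 2, and 7.06 and 9.37 CPM at week 7, the last pair lying 32.7% apart. Its log2 fold change at week 7 against week 0 was -0.65 ± 0.17 (SE; edgeR adjusted p = 0.0344). That call ended under more of the alternatives than any other of the 9. It was lost in the fit to only the 4 libraries compared (adjusted p = 0.0626) and with the replicate block (0.0518). Leaving out week 0 replicate 1 (-0.58) or 2 (-0.72), week 2 replicate 1 or 2 (-0.65 each) or week 7 replicate 1 (-0.46) ended it too, at adjusted p of 0.0567 to 0.167.

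Among the secreted products of Kupffer cells, Cd5l, C1qa and C1qc fell and C1qb was not called. Cd5l (ENSMUSG00000015854), which encodes the blood protein AIM that tissue macrophages release, had 118 and 116 CPM at week 0, 147 and 143 CPM at week 2, and 97.6 and 97.6 CPM at week 7. The log2 fold change at week 7 against week 0 was -0.26 ± 0.050 (SE; edgeR adjusted p = 0.01), or 1.20-fold lower, and without week 0 replicate 1 it was -0.25 and not called (adjusted p = 0.0631). C1qa, C1qb and C1qc encode the chains of C1q, the part of complement that recognises antibody and dying cells. They lie side by side on chromosome 4 on the minus strand, C1qb from 136880129 to 136886187, C1qc from 136889804 to 136893065 and C1qa from 136895917 to 136898803 (GENCODE M21, GRCm38). C1qa (ENSMUSG00000036887) had 74.1 and 76.4 CPM at week 0, 122 and 125 CPM at week 2, and 55.5 and 52.1 CPM at week 7. Its week 7 libraries were lower by 1.40-fold on average (log2 fold change -0.48 ± 0.063, SE; edgeR adjusted p = 0.00128). C1qc (ENSMUSG00000036896) had 57.7 and 57.4 CPM at week 0, 94.7 and 94.7 CPM at week 2, and 43.5 and 46.6 CPM at week 7. It fell by 0.35 ± 0.068 on the log2 scale (SE; edgeR adjusted p = 0.00951), and without week 7 replicate 1 it was not called (-0.30, adjusted p = 0.0521).

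C1qb (ENSMUSG00000036905) was the marker with no call in this comparison. It had 56.7 and 63.0 CPM at week 0, 97.4 and 106 CPM at week 2, and 51.4 and 51.1 CPM at week 7, so its week 0 libraries differed more from each other than those of week 7. The log2 fold change was -0.22 with a 95% interval from -0.40 to -0.050 (edgeR adjusted p = 0.093). The ratio of C1qb to C1qa, each per kilobase of exon, was 0.732 and 0.788 in the week 0 libraries, 0.760 and 0.808 in those of week 2, and 0.885 and 0.938 in those of week 7. The 2 week 7 ratios were the highest of the 6. The log2 ratio was higher by 0.26 at week 7 than at week 0 (exact permutation test, 2-sided p = 0.333, the smallest that 2 against 2 libraries allow). This ratio was looked at after the values were seen.

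The general macrophage receptors changed in the same direction. Adgre1 (ENSMUSG00000004730), which encodes the adhesion receptor F4/80 by which mouse macrophages are stained, had 19.4 and 20.3 CPM at week 0, 25.3 and 25.6 CPM at week 2, and 11.9 and 10.2 CPM at week 7. It was 1.80-fold lower at week 7 than at week 0 (log2 fold change -0.85 ± 0.12, SE; edgeR adjusted p = 0.00198). Csf1r (ENSMUSG00000024621), the receptor for the macrophage growth factors CSF1 and IL-34, had 61.0 and 56.8 CPM at week 0, 83.4 and 91.6 CPM at week 2, and 48.4 and 43.9 CPM at week 7. Its log2 fold change at week 7 against week 0 was -0.35 ± 0.083 (SE; edgeR adjusted p = 0.0237). Leaving out week 0 replicate 1 (-0.30, adjusted p = 0.125) or week 7 replicate 2 (-0.28, adjusted p = 0.119) ended that call.

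**Figure D2:**
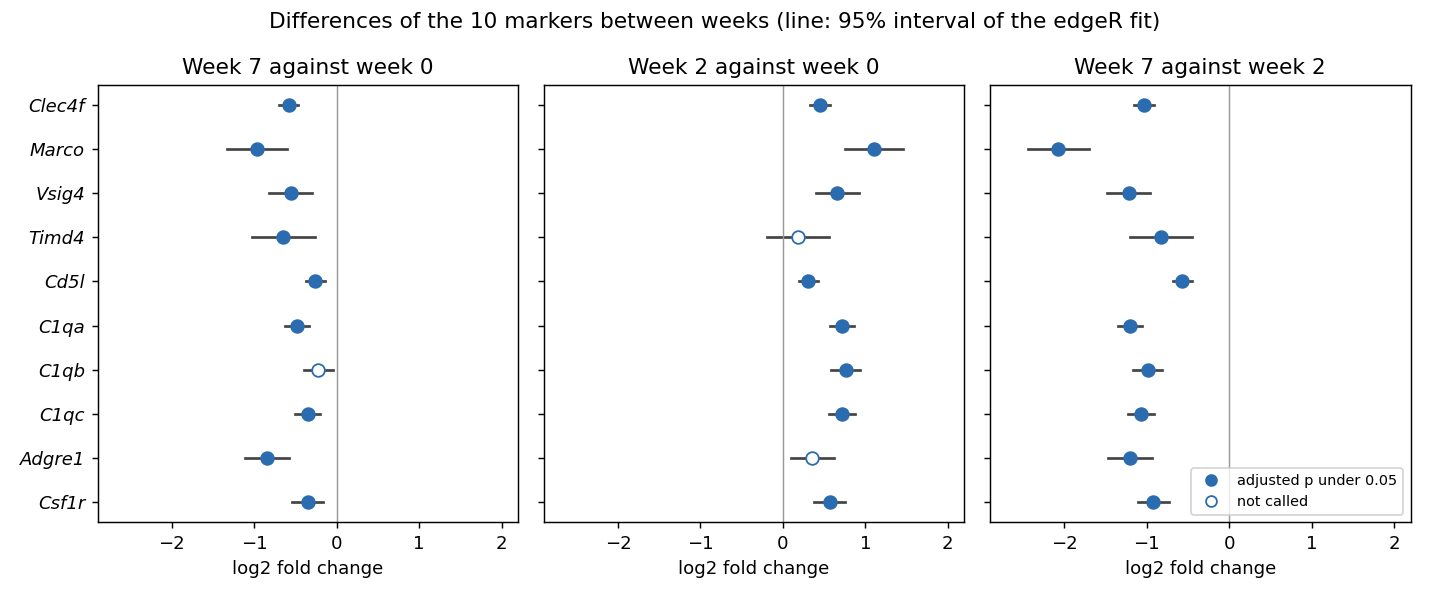
log2 fold change (horizontal axes) of each marker (rows) in the 3 comparisons of weeks, with lines for the 95% interval of the edgeR fit, filled points for an adjusted p under 0.05 and open points otherwise. All points lie left of 0 at week 7 against week 0 and against week 2, and right of 0 at week 2 against week 0, with C1qb (-0.22) open in the left panel and Timd4 (0.18) and Adgre1 (0.36) open in the middle.

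At week 2 against week 0, a comparison in which sex differs too, 8 of the 10 markers rose and 0 fell. Over all tested genes 9.81% were called higher and 8.81% lower, 18.6% in all, with 1508 higher and 1354 lower (2007 and 913 with library totals only). All 10 markers had week 2 libraries above both week 0 libraries, as had 31.4% of tested genes (28.8% had them below), and their median log2 fold change was 0.62, against 0.014 over all tested genes. Marco rose 2.15-fold, to 15.3 ± 0.0241 CPM at week 2 against 7.10 ± 0.460 CPM at week 0 (edgeR adjusted p = 0.00125). The C1q chains rose together, with log2 fold changes of 0.72 ± 0.062 for C1qa, 0.76 ± 0.077 for C1qb and 0.72 ± 0.067 for C1qc (SE; edgeR adjusted p of 6.61e-05, 0.00017 and 0.000109). Their intervals overlapped, and each chain was between 1.64-fold and 1.70-fold higher. Vsig4 rose 1.58-fold, Csf1r 1.48-fold, Clec4f 1.36-fold and Cd5l 1.24-fold. Timd4 was the marker nearest to its week 0 level, at 14.6 ± 0.813 CPM at week 2 and 12.9 ± 0.898 CPM at week 0 (95% interval of the log2 fold change -0.20 to 0.55; edgeR adjusted p = 0.527). Adgre1 had a log2 fold change of 0.36 (edgeR adjusted p = 0.0658), and it was called with upper-quartile scaling (0.0491), with library totals only (0.0298), with DESeq2 (0.0381), with limma voom (0.0446) and in the fit to only the 4 libraries compared (0.0478).

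At week 7 against week 2, where sex again differs with the week, all 10 markers fell. Over all tested genes 9.73% were called lower and 10.1% higher, 19.8% in all, with 1495 lower and 1545 higher (1784 and 1248 with library totals only, 1799 and 1258 with upper-quartile scaling), and the median log2 fold change was -1.05 for the markers and -0.0042 over all tested genes. All 10 had week 7 libraries below both week 2 libraries, as had 30.8% of tested genes, and 30.3% had them above. Marco was 4.21-fold lower, at 3.63 ± 0.318 CPM at week 7 and 15.3 ± 0.0241 CPM at week 2 (log2 fold change -2.07; edgeR adjusted p = 3.45e-05). Adgre1 was 2.30-fold lower, Vsig4 2.33-fold, C1qa 2.30-fold, C1qc 2.10-fold, Clec4f 2.04-fold, C1qb 1.98-fold, Csf1r 1.90-fold, Timd4 1.77-fold and Cd5l 1.48-fold lower. Cd5l thus had the narrowest range of the 10 over the weeks and Marco the widest. The Timd4 call (log2 fold change -0.83; edgeR adjusted p = 0.00869) was lost without week 2 replicate 2 (-0.77, adjusted p = 0.0558) and without week 7 replicate 1 (-0.64, adjusted p = 0.0503). The 3 comparisons share libraries, so they are not independent of each other.

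Levels of different genes were compared per kilobase of exon (union of GENCODE M21 exons, so a gene with rare long transcripts is set too low). At week 0, C1qa was the most abundant marker at 72.4 ± 1.59 CPM per kilobase, followed by Clec4f at 59.4 ± 0.444, Cd5l at 57.4 ± 0.730, C1qb at 55.0 ± 4.06, C1qc at 29.8 ± 0.105, Vsig4 at 22.2 ± 0.529, Csf1r at 10.2 ± 0.519, Adgre1 at 6.13 ± 0.215, Timd4 at 5.92 ± 0.413 and Marco at 3.69 ± 0.239. The libraries of Cd5l and C1qb overlapped at week 0, as did those of Adgre1 and Timd4, so the order within those pairs is not resolved. At week 2 C1qb, at 93.3 ± 5.41 CPM per kilobase, stood above Clec4f at 80.8 ± 1.09 and Cd5l at 71.2 ± 1.43, and Marco, at 7.93 ± 0.0125, stood above Timd4 at 6.70 ± 0.374. At week 7 Cd5l (48.0 ± 0.00721) and C1qb (47.1 ± 0.143) stood above Clec4f (39.6 ± 2.18), and Timd4 (3.78 ± 0.752) and Adgre1 (3.41 ± 0.355) overlapped. C1qa was the highest marker in all 3 weeks, and C1qc, Vsig4 and Csf1r followed each other in that order in each.

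Other genes of Kupffer cells were then read from a list. The counts of this list and of those below stand beside the shares of all tested genes. At week 7 against week 0 these were 6.23% called lower and 7.58% higher, and at week 2 against week 0 they were 9.81% higher and 8.81% lower. No list was tested against those shares. Of 12 such genes, 5 fell and 0 rose at week 7 against week 0, with a median log2 fold change of -0.64. Fcna, a ficolin that binds bacterial sugars, averaged 29.2 ± 3.29 CPM at week 7 and 46.3 ± 0.560 CPM at week 0 (edgeR adjusted p = 0.00213). Cd163, the receptor for haemoglobin bound to haptoglobin, averaged 3.04 ± 0.978 CPM at week 7 and 8.21 ± 1.62 CPM at week 0 (edgeR adjusted p = 0.00852), but it was not called without week 0 replicate 1 (log2 fold change -1.22 in place of -1.43, adjusted p = 0.052). The others that fell were Paqr9, at 256 ± 0.772 CPM at week 7 and 327 ± 5.20 CPM at week 0, Cd38, at 10.1 ± 2.17 CPM at week 7 and 18.8 ± 0.471 CPM at week 0, and Slc11a1, whose call ended without week 0 replicate 2 (adjusted p = 0.061) or week 7 replicate 2 (0.0788). By week 2, 6 of the 12 rose and 0 fell, among them Fcna at 67.7 ± 3.72 CPM and Hpgd, which breaks down prostaglandins, at 151 ± 11.6 CPM at week 2 and 99.2 ± 4.61 CPM at week 0 (edgeR adjusted p = 0.00371 and 0.000329). Hpgd is also made by other liver cells.

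Of 9 transcription factors of the lineage, 3 fell and 0 rose at week 7 against week 0, with a median log2 fold change of -0.34. Id3, a helix-loop-helix inhibitor that Kupffer cells need in the mouse, averaged 36.7 ± 0.946 CPM at week 7 and 76.1 ± 0.0596 CPM at week 0, 2.08-fold lower (edgeR adjusted p = 2.88e-05). Its relative Id1 was 2.08-fold lower too, at 7.31 ± 0.715 CPM at week 7 and 15.2 ± 0.466 CPM at week 0 (edgeR adjusted p = 0.00118). Both are also made by other liver cells. Zeb2, with a log2 fold change of -0.73 (edgeR adjusted p = 0.0321), was the third that fell, and its call was lost without either library of week 0 or of week 7 (0.0724 to 0.158), with limma voom (0.062) and with the replicate block (0.0579). Spi1, which encodes PU.1, averaged 8.35 ± 1.27 CPM at week 7 and 7.71 ± 0.417 CPM at week 0, and Nr1h3, the oxysterol receptor LXR alpha that hepatocytes also make, averaged 111 ± 4.98 CPM at week 7 and 106 ± 1.22 CPM at week 0 (edgeR adjusted p = 0.73 and 0.506). Spi1 and Nr1h3 were the only 2 of the 9 with a log2 fold change above 0, and the other uncalled factors lay below 0. Of the 9, 5 had an unadjusted p under 0.05 by edgeR, all of them lower. At week 2, 2 of the 9 rose and 0 fell against week 0, namely Nr1h3 and Spi1 (edgeR adjusted p = 0.013 and 0.0255), and DESeq2 called 4. The calls of Nr1h3 (log2 fold change 0.25) and Spi1 (0.64) ended with any 1 of the 4 libraries of those weeks left out (adjusted p of 0.0524 to 0.0756 and 0.0672 to 0.117).

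Of the signals that liver cells offer to Kupffer cells, 1 of 8 tested genes fell and 0 rose at week 7 against week 0. That gene was Gdf2, which encodes the stellate cell product BMP9, a ligand known to drive Id genes. It averaged 8.95 ± 1.01 CPM at week 7 and 15.8 ± 0.0372 CPM at week 0 (log2 fold change -0.82; edgeR adjusted p = 0.00273), against 29.5 ± 0.0274 CPM at week 2. Csf1, a ligand of the Csf1r product, had 10.1 ± 1.17 CPM at week 0, 12.3 ± 1.59 CPM at week 2 and 7.60 ± 1.11 CPM at week 7, and was called neither at week 7 nor at week 2 against week 0 (edgeR adjusted p = 0.18 and 0.322). Il34, the other ligand, had 0.667 ± 0.376 CPM at week 0, 2.13 ± 0.493 CPM at week 2 and 0.873 ± 0.397 CPM at week 7, and was not called at week 2 against week 0 (edgeR adjusted p = 0.0679). It was called with the replicate block (0.0375), with counts divided by 4 (0.0358), with no filter (0.0497), without week 0 replicate 2 (0.0496) and by DESeq2 (0.0467). By week 2, Gdf2 and Tgfb1 rose and 0 of the 8 fell. Tgfb1 averaged 21.3 ± 1.59 CPM at week 2 and 11.8 ± 2.75 CPM at week 0 (edgeR adjusted p = 0.00746), and without week 2 replicate 2 it was not called (adjusted p = 0.0538).

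Genes shared by macrophages of any tissue made a list of 15, of which 1 fell, 1 rose and 13 were not called at week 7 against week 0, with a median log2 fold change of -0.16. Those counts were near the shares over all tested genes, 6.23% lower and 7.58% higher. Of the 15, 3 had a log2 fold change above 0 and the rest lay below 0. An unadjusted p under 0.05 by edgeR was reached by 6, and of these only the gene that rose was higher. Ctss, a lysosomal protease, averaged 31.6 ± 1.42 CPM at week 7 and 40.4 ± 2.95 CPM at week 0 (edgeR adjusted p = 0.0263), a call lost without week 0 replicate 1 (0.148), without week 7 replicate 1 (0.0611) or 2 (0.121) and in the fit to only the 4 libraries compared (0.0561). Mpeg1, the pore-forming perforin-2 of phagocytes, rose to 104 ± 2.74 CPM at week 7, against 83.9 ± 4.26 CPM at week 0 (edgeR adjusted p = 0.0142; not called without week 0 replicate 2, 0.0908, or week 7 replicate 1, 0.072). Lyz2, a lysozyme of macrophages and neutrophils, averaged 65.7 ± 1.54 CPM at week 7 and 66.3 ± 1.78 CPM at week 0, and Ptprc, the CD45 of all white blood cells, averaged 5.98 ± 0.604 CPM at week 7 and 5.82 ± 1.65 CPM at week 0 (edgeR adjusted p = 0.931 and 0.939). Their log2 fold changes, -0.013 and 0.041, were the smallest of the list. The summed level of the 15 genes was 368 to 386 CPM at week 0, 533 to 537 CPM at week 2 and 359 to 367 CPM at week 7. By week 2, 9 of the 15 rose and 0 fell, with Lyz2 at 120 ± 2.69 CPM and Lgmn, another lysosomal protease, at 105 ± 3.12 CPM at week 2 against 78.1 ± 0.887 CPM at week 0 (edgeR adjusted p = 1.79e-05 and 0.0011).

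**Figure D3:**
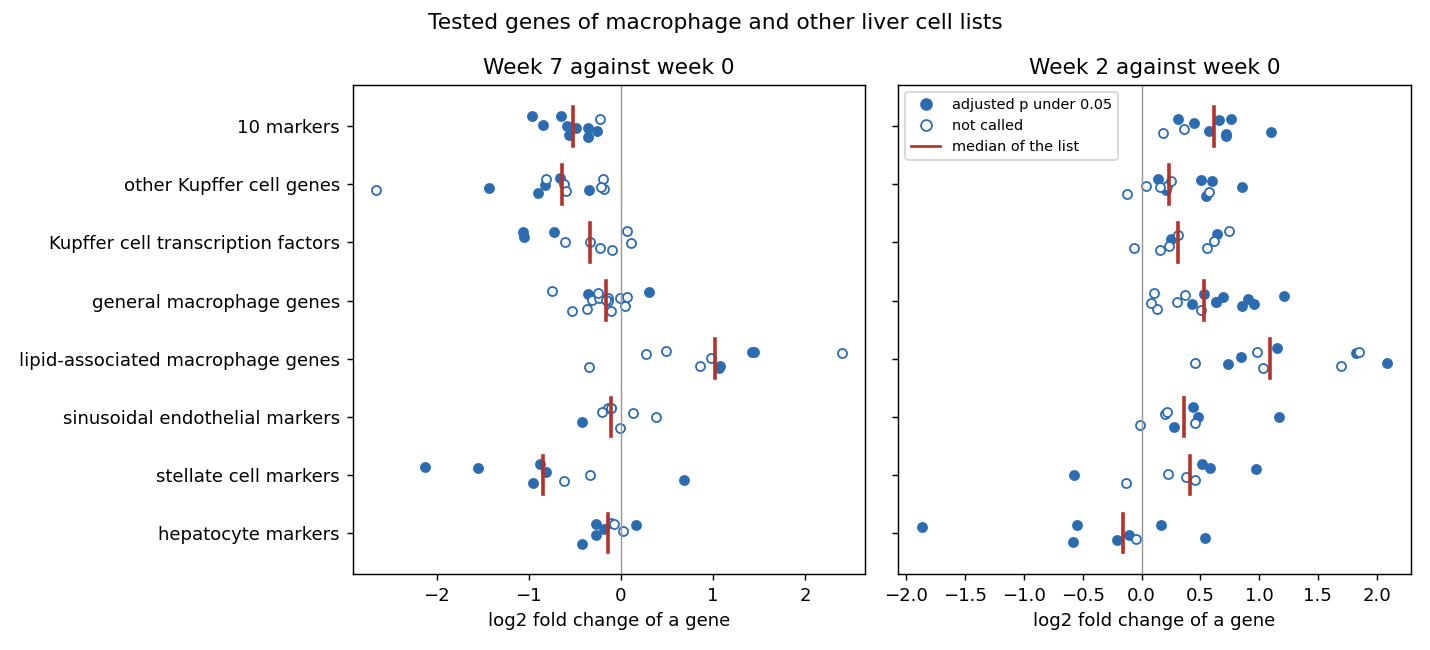
log2 fold change (horizontal axes) of every tested gene of 8 lists (rows) at week 7 against week 0 (left) and week 2 against week 0 (right), with filled points for an adjusted p under 0.05, open points otherwise and a red bar at the median of each list. At week 7 the medians are -0.52 for the 10 markers, -0.16 for general macrophage genes and 1.02 for lipid-associated macrophage genes, and points of a row are spread vertically only so that they can be seen.

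Of 10 genes known from macrophages of fatty or injured liver, 4 rose and 0 fell at week 7 against week 0, with a median log2 fold change of 1.02. DESeq2 called 7 and limma voom 2. Lpl, the lipoprotein lipase of many cell types, averaged 23.4 ± 2.25 CPM at week 7 and 8.64 ± 0.483 CPM at week 0 (edgeR adjusted p = 0.000207), and Cd63, a late endosome protein of many cell types, averaged 7.91 ± 0.681 CPM at week 7 and 3.75 ± 0.500 CPM at week 0 (edgeR adjusted p = 0.00577). Cd52 and Mmp12 (log2 fold changes 1.07 and 1.42; edgeR adjusted p = 0.0313 and 0.0332) rose as well, but were not called with limma voom (0.0965 and 0.0689) or with the replicate block (0.0556 and 0.0535). Cd52 was also not called in the fit to only the 4 libraries compared (0.0559). Leaving out any 1 library of weeks 0 or 7 ended the call of Cd52 (0.0532 to 0.143), and leaving out any 1 of the 6 ended that of Mmp12 (0.0558 to 0.164). The receptor Trem2, which defines these cells, had 0.369 ± 0.182 CPM at week 0, 0.755 ± 0.0173 CPM at week 2 and 0.728 ± 0.228 CPM at week 7, and Gpnmb had 0.216 ± 0.193 CPM at week 0, 0.704 ± 0.0651 CPM at week 2 and 1.14 ± 0.373 CPM at week 7 (week 7 against week 0, edgeR adjusted p = 0.0882; DESeq2 adjusted p = 0.0293). The week 2 libraries had 5 of the 10 higher than week 0 and 0 lower, among them the fatty acid binding protein gene Fabp5 at 95.2 ± 2.23 CPM at week 2 and 22.3 ± 0.326 CPM at week 0 (edgeR adjusted p = 4.48e-07).

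Monocytes can replace Kupffer cells that are lost, and their genes were low in these libraries. Of 10 genes of recruited monocytes 8 were tested, and 0 rose and 0 fell at week 7 against week 0 by edgeR, with 2 at an unadjusted p under 0.05, 2 called by DESeq2 and 0 by limma voom. Their summed level was 13.8 to 19.3 CPM at week 0, 28.1 to 33.8 CPM at week 2 and 18.3 to 21.1 CPM at week 7. Itgal was the most abundant of these genes, at 9.85 ± 4.27, 16.1 ± 4.03 and 10.5 ± 1.21 CPM at weeks 0, 2 and 7. It was called at neither week 7 nor week 2 against week 0 (edgeR adjusted p = 0.913 and 0.223), and the sums rest largely on it. Cx3cr1, a chemokine receptor of monocytes and some macrophages, averaged 1.88 ± 0.587 CPM at week 7 and 0.804 ± 0.0814 CPM at week 0 (edgeR adjusted p = 0.064; DESeq2 adjusted p = 0.0456), and S100a4 averaged 0.681 ± 0.189 CPM at week 7 and 0.0415 ± 0.0586 CPM, under the detection limit, at week 0 (edgeR adjusted p = 0.0777; DESeq2 adjusted p = 0.00595). Cx3cr1 and Plac8 rose at week 2 against week 0, to 3.02 ± 0.667 and 6.86 ± 0.985 CPM (edgeR adjusted p = 0.0077 and 0.00792), and each call was lost without a week 2 library (0.0647 without replicate 2 for Cx3cr1, 0.0667 without replicate 1 for Plac8). Ccr2, which draws monocytes from the blood, averaged 0.570 ± 0.0438 CPM at week 0, 1.54 ± 0.366 CPM at week 2 and 0.633 ± 0.267 CPM at week 7.

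Activation genes were mostly at or near the detection limit. Of 12, the inflammatory genes Nos2, Il6 and Il12b and the alternative activation gene Retnla had 0 counts in all 6 libraries, which allows up to 12 counts each, or 0.20 to 0.249 CPM depending on the library. Among 7 tested genes 1 fell and 0 rose at week 7 against week 0. That was Mrc1, the mannose receptor, which sinusoidal endothelium makes too, at 41.2 ± 1.32 CPM at week 7 and 53.2 ± 2.41 CPM at week 0 (edgeR adjusted p = 0.0132; not called without week 0 replicate 1, 0.0833, or week 7 replicate 2, 0.069). Week 2 against week 0 gave 0 calls of the 7 by edgeR, DESeq2 and limma voom, and 1 gene had an unadjusted p under 0.05.

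Receptors and bridging proteins for dying cells, besides Timd4, made a list of 10, of which 2 rose and 1 fell at week 7 against week 0. Scarb1, the HDL receptor that hepatocytes carry, averaged 187 ± 2.24 CPM at week 7 and 120 ± 3.31 CPM at week 0 (edgeR adjusted p = 5.14e-05), and Cd36 averaged 17.8 ± 1.42 CPM at week 7 and 10.5 ± 2.01 CPM at week 0 (edgeR adjusted p = 0.00832; 0.0523 without week 7 replicate 2). Axl, a receptor tyrosine kinase of Kupffer and endothelial cells, had a log2 fold change of -0.42 (edgeR adjusted p = 0.0309). Its call was lost without any 1 of 5 libraries (all but week 7 replicate 1; 0.0533 to 0.134) and in the fit to only the 4 libraries compared (0.0685). Of the same 10, 5 rose and 0 fell at week 2 against week 0, led by Gas6, the ligand of Axl and Mertk, at 90.1 ± 4.26 CPM at week 2 and 35.8 ± 0.257 CPM at week 0, and Cd36 at 37.1 ± 0.402 CPM at week 2 (edgeR adjusted p = 2.97e-06 and 3.3e-05).

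The partners of C1q in the blood are made mainly by hepatocytes. Of 7, 2 rose and 0 fell at week 7 against week 0, with a median log2 fold change of 0.044. C4b, the complement component that C1 cleaves, averaged 1087 ± 6.80 CPM at week 7 and 861 ± 5.32 CPM at week 0 (edgeR adjusted p = 0.000124). C2 rose by 0.30 on the log2 scale (edgeR adjusted p = 0.0142), a call that ended with either week 0 library or week 7 replicate 1 left out (0.0614 to 0.0768). The C1 protease genes fell at week 2 against week 0, with C1ra at 190 ± 8.34 CPM at week 2 and 242 ± 12.97 CPM at week 0, and C1s1 at 250 ± 0.818 CPM at week 2 and 327 ± 18.5 CPM at week 0 (edgeR adjusted p = 0.0018 and 0.000427). C3, whose fragments the Vsig4 product binds, rose at week 2 to 8469 ± 29.8 CPM, against 6342 ± 13.4 CPM at week 0 (edgeR adjusted p = 2.89e-06), and in all 1 of the 7 genes rose and 4 fell at week 2.

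Markers of neighbouring cells moved in part with those of Kupffer cells, and their share in the marker results was not tested. Of 8 sinusoidal endothelial markers 1 fell and 0 rose at week 7 against week 0, namely Clec4g, at 62.8 ± 2.03 CPM at week 7 and 83.8 ± 2.84 CPM at week 0 (edgeR adjusted p = 0.00274). Their summed level was 269 to 273 CPM at week 0, 328 to 356 CPM at week 2 and 240 to 251 CPM at week 7. Of 8 stellate cell markers 5 fell and 1 rose at week 7, with Lrat, which makes the stored retinyl esters, 4.38-fold lower, Hgf, which encodes hepatocyte growth factor, 2.93-fold lower and Colec11 1.94-fold lower than at week 0, while Reln was 1.61-fold higher (edgeR adjusted p of 1e-05, 0.00108, 0.00201 and 0.000644). The stellate cell sum was 153 to 175 CPM at week 0, 194 to 215 CPM at week 2 and 121 to 125 CPM at week 7. In the week 2 libraries 4 of 8 endothelial markers rose and 0 fell, and 3 of 8 stellate cell markers rose and 1, Lrat, fell (log2 fold change -0.57; edgeR adjusted p = 0.00765; not called without week 2 replicate 1, 0.0643, or week 0 replicate 1, 0.05). Lyve1 averaged 11.4 ± 0.471 CPM at week 2 and 5.07 ± 1.04 CPM at week 0 (edgeR adjusted p = 0.00568), and Cdh5 had a log2 fold change of 0.44 (0.00806; 0.0667 without week 2 replicate 1). Of 8 hepatocyte markers 1 rose and 4 fell at week 7, and 2 rose and 5 fell at week 2, each against week 0.

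Markers of white blood cells other than macrophages had low summed levels. Dendritic cell markers summed to 6.05 to 6.24 CPM at week 0, 9.30 to 10.1 CPM at week 2 and 5.55 to 6.04 CPM at week 7, and T and NK cell markers to 4.87 to 4.95, 9.79 to 9.82 and 4.06 to 5.24 CPM in the same order of weeks. Zbtb46 was the most abundant gene of the dendritic list, averaging 4.56, 6.24 and 4.14 CPM at weeks 0, 2 and 7. Cd4 was that of the T and NK list, averaging 2.65, 3.14 and 1.83 CPM. Neutrophil markers stayed at or under 3.39 CPM and B cell markers at or under 3.75 CPM in every library, and the neutrophil marker Ly6g had 0 counts in all 6. At week 7 against week 0, 0 of 7 tested dendritic cell genes, 0 of 4 neutrophil genes and 0 of 7 T and NK cell genes were called by edgeR, DESeq2 or limma voom, and 0 had an unadjusted p under 0.05. At week 2, edgeR called 0 genes of these lists and 0 of 5 B cell genes; DESeq2 called 1 T and NK cell gene and 1 B cell gene, limma voom 0, and the unadjusted p was under 0.05 for 1 dendritic, 1 T and NK and 2 B cell genes. The B cell gene Ms4a1 was called at week 7, with 0 counts in both week 7 libraries and 0.304 ± 0.108 CPM at week 0, close to the limit of detection (edgeR adjusted p = 0.0344), and leaving out any library but week 0 replicate 2 ended that call (0.0612 to 0.112). It was also lost with limma voom (0.142), in the fit to only the 4 libraries compared (0.0928) and with the replicate block (0.0752). Of 4 tested bile duct genes 1, Krt19, rose at week 7, to 4.597 ± 0.109 CPM against 0.513 ± 0.329 CPM at week 0 (edgeR adjusted p = 0.0011). The mean sums were highest at week 2 for dendritic, T and NK, endothelial, stellate and macrophage lists alike. The same held for the neutrophil, B cell, bile duct and hepatocyte lists, at 1.39, 3.38, 1.93 and 1.23 times their week 0 means. The hepatocyte sum rests largely on Alb, whose mean rose from 65490 to 95488 between those weeks. Of the 8 hepatocyte genes 5 were called lower and 2 higher, with a median log2 fold change of -0.16. Krt19 rose from 0.513 to 5.21 in the bile duct list, whose median log2 fold change was -0.065. Those 2 sums therefore do not stand for their lists as a whole. Among the white blood cell lists, a highest mean sum at week 2 was not particular to macrophages.

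**Figure D4:**
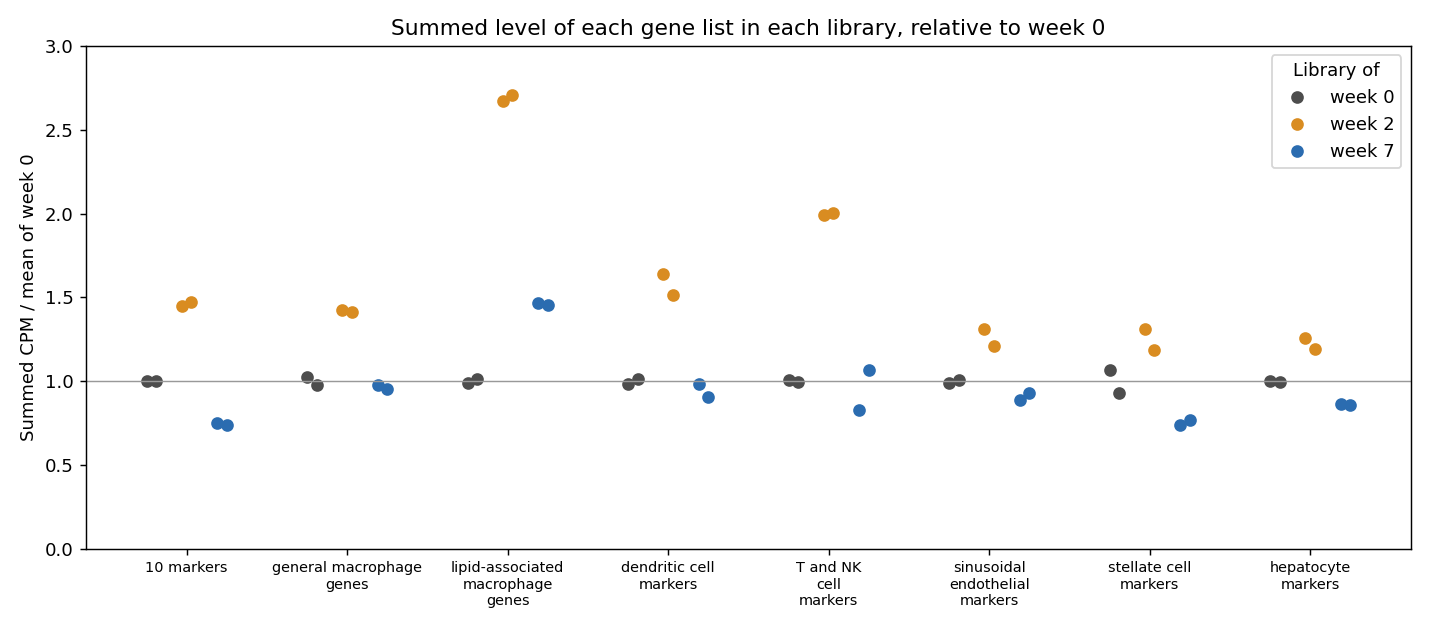
Summed CPM of 8 gene lists (horizontal axis) in each of the 6 libraries, divided by the mean of the week 0 libraries (vertical axis, linear and starting at 0). The 10 markers average 1.46 at week 2 and 0.743 at week 7, general macrophage genes 1.42 and 0.963, lipid-associated macrophage genes 2.69 and 1.46, and stellate cell markers 1.25 and 0.753. The lipid-associated sum averages 61.7, 166 and 90.1 CPM at weeks 0, 2 and 7. Within it Fabp5 rises from 22.3 CPM at week 0 to 95.2 CPM at week 2, and Lpl from 8.64 CPM to 23.4 CPM at week 7.

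The genes whose profile over the 6 libraries lay nearest to the average of the 10 markers were sought among tested genes of at least 5 CPM. The measure was the root mean square distance between log2 CPM values, each centred on its own mean. The nearest were Itga9 (0.0508), Igfbp7 (0.0560), Gm7993 (0.0611), Dapk1 (0.0642) and Col6a1 (0.0674). Among the markers the distance to their own average was smallest for C1qa (0.0647) and Clec4f (0.0694) and largest for Marco (0.389), Cd5l (0.221) and Timd4 (0.208). Itga9 averaged 24.5, 35.5 and 17.5 CPM at weeks 0, 2 and 7. With 6 libraries in 3 weeks this likeness is mostly the likeness of 3 weekly means.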

How the data were processed

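The libraries were made from poly-A RNA with the TruSeq V2 kit and read as paired ends, per the labels' protocols. Each cell of the table the authors deposited is an estimated count for a gene and a library, with no correction for depth. Which program and annotation made it is not stated in the sources available here. Bowtie 0.12.2 and mm8 appear in the submitters' processing notes, with no role given. Of values from 4 to 43, 68.3% to 69.6% per library sit at or 1 above a multiple of 4. Many values would fall there without any steps, so this share alone does not fix the size of a step. A read pair was assumed to be 4 counts. The detection limit of 12 counts (3 read pairs) rests on that and covers counting error only, since reads are not independent molecules. Rounding changed 0 values. GENCODE M21 gave symbols for 54409 of 54446 identifiers.

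Tests used edgeR 4.0.16 under R 4.3.3: filterByExpr, TMM, and a robust quasi-likelihood fit of all 6 libraries with 1 coefficient per week (3 residual degrees of freedom; common coefficient of biological variation 0.209). P-values were adjusted by Benjamini-Hochberg over 15368 genes. Alternatives were other scalings, no filter, DESeq2 1.42.0, limma 3.58.1 voom, a fit to only the 4 libraries of a comparison, a block for the replicate number, counts divided by 4, each library left out, and an adjusted p under 0.01. Figures were drawn with matplotlib 3.10.9 in Python 3.11.15. The markers and lists were chosen with earlier results of these data known. All 10 markers are named; of each other list the text may name up to 3 called genes per direction at week 7 and up to 2 at week 2 against week 0 ranked on adjusted p, or, where none was called, the 2 of lowest p. Genes outside this rule (Cd38, Slc11a1, Csf1, Il34, Ptprc, Mmp12, Trem2, Gpnmb, Ccr2, Itgal, Zbtb46, Cd4, and Spi1, Nr1h3 and Lyz2 at week 7) were chosen after their values were seen. Left out of the text and of the lists' counts are 1 gene of the transcription factor list, 1 of the C1 partner list and another promoter motif that was also searched, which are not reported here.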

Additional observations from a re-analysis of the deposited data

How the results depend on the processing

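All 480 alternative log2 fold changes of the markers kept their direction; 460 kept their side of the threshold, 15 lost a call and 5 gained one. At week 7 against week 0, 9 markers were called, 5 at an adjusted p under 0.01 and 5 to 8 with a library left out (5 without week 0 replicate 1). At week 2 against week 0, 8 were called, and 8 with each library left out. At week 7 against week 2, 10 were called, and 9 to 10 with a library left out. The genes called in all numbered 2123, 2862 and 3040 in these comparisons. At an adjusted p under 0.01 they were 1008, 1574 and 1632, and with a library left out 1298 to 1856, 1801 to 2752 and 1842 to 2961. Fewer libraries leave fewer degrees of freedom, and a lone library is assumed to vary like the other groups. Some genes named without a call at week 7 against week 0 changed sign. Lyz2 ran from -0.040 to 0.016 with a library left out and was 0.023 with library totals only. With a library left out, Spi1 ran from -0.047 to 0.26, Il34 from -0.17 to 1.12, Ptprc from -0.22 to 0.37 and Ccr2 from -0.36 to 0.53. Of the 10 genes of macrophages in fatty or injured liver, 4 were called at week 7 against week 0 by edgeR, 7 by DESeq2 and 2 by limma voom. Of the 9 transcription factors, 2 were called at week 2 against week 0 by edgeR and 4 by DESeq2. The labels do not say whether replicate numbers pair the libraries. The deviations of libraries with the same number correlated at -0.0262 (weeks 7 and 0), -0.0174 (weeks 2 and 0) and -0.122 (weeks 7 and 2). With 2 libraries a week these values cannot exclude a pairing. With a replicate block 8, 8 and 10 markers and 1702, 2436 and 2620 genes were called. With the numbers of week 7 crossed, an alternative added after seeing the data, 9, 8 and 10 markers and 1962, 2675 and 2863 genes were called. Depth limits most the genes near the floor of 0.20 to 0.249 CPM. All 10 markers lay above it, the lowest being Marco, with 208 and 174 deposited counts at week 7. How far depth adds to the spread of the less abundant markers was not tested.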
